A study of Mus musculus and Rattus norvegicus with 26 samples.

Results

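The genes described here code for potassium channel subunits. They were taken as every gene of the 6 lists of retained intron sequence whose symbol begins with Kcn, in exact case, except the large-conductance channel gene Kcnma1. The rule found 44 genes of 13695 listed genes, with 461 of 112345 contigs. Of these genes, 40 were in the mouse lists and 19 in the rat lists.

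The study looked for intron sequence in RNA outside the nucleus by sequencing dissected dendrites of cultured hippocampal neurons beside single somas and other single cells. An entry of a list is a contig, a stretch of intron covered by clustered reads, with the transcript, the intron number and the reads of that intron. Each list pools the libraries of 1 condition, so no spread between libraries could be computed and no test was possible. Intervals below cover counting error only.

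The mouse dendrites (3 libraries) and mouse somas (3 libraries, nucleus included) came from C57BL/6 embryos of day 18. The rat dendrites (2 libraries) and rat somas (3 libraries) came from Sprague-Dawley embryos of the same age. In the study each dendrite library pooled many dissected dendrites, while each soma library was a single cell. Ratios of dendrites over somas thus set pools of dendrites against single cells. The brown adipose tissue (BAT) cells (6 libraries) were single cells of interscapular fat from CD-1 embryos of day 17.5. The cardiomyocytes (9 libraries) were single ventricular cells from transgenic C57BL/6 embryos of day 14.5. These embryos carried the Fucci cell cycle probe mAG-hGem, hemizygous and driven by the ubiquitous CMV promoter, and the cells had been sorted for its fluorescence and for viability. All RNA went through 3 rounds of aRNA amplification, which is primed with a poly(T) primer, and the labels name no treatment. The labels give 6 BAT and 9 cardiomyocyte libraries against smaller numbers in the study's text, and which cells entered the pooled lists is not known. Since each list is a pool, fewer cells with a retained intron and less retained RNA per cell cannot be told apart.

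Potassium channels let potassium ions leave or enter the cell and thereby set its resting potential, the shape of its action potentials and its firing pattern. Pore-forming subunits assemble in the membrane, silent subunits join pores of other families, and auxiliary subunits bind pores from the cytoplasm or from within the membrane. In neurons different channels are placed in the axon, soma and dendrites, and in the heart they end the action potential and slow the pacemaker.

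The sequences below show where retained stretches of these genes lay and how they ended. All were read from the mouse genome of build NCBIM37 (mm9) on the strand of the gene, 5′ to 3′. The first set holds sites at which contigs of 2 lists overlapped. Capitals mark the bases covered in both lists, and the lower-case bases are flanks.
Kcnd1 intron 5, mouse dendrites and mouse somas, chrX:7413146-7413400, plus strand: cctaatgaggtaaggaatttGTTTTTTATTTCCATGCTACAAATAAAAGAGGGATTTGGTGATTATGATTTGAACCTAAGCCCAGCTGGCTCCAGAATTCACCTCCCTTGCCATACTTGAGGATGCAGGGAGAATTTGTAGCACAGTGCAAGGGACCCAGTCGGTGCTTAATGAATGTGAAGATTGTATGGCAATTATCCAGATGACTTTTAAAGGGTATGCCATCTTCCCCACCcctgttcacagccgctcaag
Kcnt2 intron 22, mouse dendrites and mouse somas, chr1:142458755-142459011, plus strand: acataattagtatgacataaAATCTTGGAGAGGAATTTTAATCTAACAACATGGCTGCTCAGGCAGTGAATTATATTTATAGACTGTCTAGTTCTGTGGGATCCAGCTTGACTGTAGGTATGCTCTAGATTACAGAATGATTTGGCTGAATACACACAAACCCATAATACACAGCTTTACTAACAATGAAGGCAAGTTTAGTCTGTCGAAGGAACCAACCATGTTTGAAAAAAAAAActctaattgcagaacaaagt
Kcnk4 intron 2, mouse dendrites and mouse somas, chr19:7003393-7003691, minus strand: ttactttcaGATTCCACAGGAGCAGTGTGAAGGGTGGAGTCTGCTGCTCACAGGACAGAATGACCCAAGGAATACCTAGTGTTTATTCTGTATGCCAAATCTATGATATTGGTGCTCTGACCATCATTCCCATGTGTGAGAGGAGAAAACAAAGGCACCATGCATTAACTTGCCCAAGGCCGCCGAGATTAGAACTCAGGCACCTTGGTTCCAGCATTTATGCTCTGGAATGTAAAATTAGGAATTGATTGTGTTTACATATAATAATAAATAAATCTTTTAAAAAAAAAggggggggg
Kcnn3 intron 2, mouse dendrites and mouse somas, chr3:89379883-89380123, plus strand: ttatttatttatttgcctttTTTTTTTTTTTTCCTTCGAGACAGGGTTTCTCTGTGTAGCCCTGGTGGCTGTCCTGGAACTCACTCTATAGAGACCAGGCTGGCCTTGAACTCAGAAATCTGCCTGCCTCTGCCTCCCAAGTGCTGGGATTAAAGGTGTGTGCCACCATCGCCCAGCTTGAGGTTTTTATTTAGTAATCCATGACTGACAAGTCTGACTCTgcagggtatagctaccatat
Kcnj3 intron 2, BAT cells and cardiomyocytes, chr2:55319299-55319439, plus strand: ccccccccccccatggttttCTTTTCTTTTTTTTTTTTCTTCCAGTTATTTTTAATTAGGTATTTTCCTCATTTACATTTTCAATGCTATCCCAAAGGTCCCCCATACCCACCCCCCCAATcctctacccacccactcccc
The shared stretch of Kcnt2 ended in a run of 10 adenines and that of Kcnk4 in a run of 9, while those of Kcnd1, Kcnn3 and Kcnj3 held no such run on this strand. Those of Kcnn3 and Kcnj3 held a long run of thymines, which is adenines on the other strand.

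The second set holds the last 70 bases of a contig and the bases after it, as far as 10 bases past the first run of 10 or more adenines after the contig, which stands in capitals. They show genomic adenines to which a poly(T) primer could pair.
Kcng3 intron 1, BAT cells, chr17:83997320-83997425, minus strand: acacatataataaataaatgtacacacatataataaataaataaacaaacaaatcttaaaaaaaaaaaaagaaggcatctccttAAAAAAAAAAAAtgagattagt
Kcng3 intron 1, mouse dendrites, chr17:83997320-83997414, minus strand: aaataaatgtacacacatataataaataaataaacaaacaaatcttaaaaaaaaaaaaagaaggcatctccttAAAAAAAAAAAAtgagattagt
Kcnd3 intron 2, mouse somas, chr3:105465290-105465388, plus strand: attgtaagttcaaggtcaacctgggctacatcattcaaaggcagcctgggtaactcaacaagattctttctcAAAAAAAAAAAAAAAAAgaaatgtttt
Kcnh1 intron 7, mouse dendrites, chr1:194220649-194220754, plus strand: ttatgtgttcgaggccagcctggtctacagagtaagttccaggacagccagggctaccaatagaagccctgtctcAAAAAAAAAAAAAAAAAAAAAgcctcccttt
Kcnh7 intron 5, mouse somas, chr2:62683570-62683679, minus strand: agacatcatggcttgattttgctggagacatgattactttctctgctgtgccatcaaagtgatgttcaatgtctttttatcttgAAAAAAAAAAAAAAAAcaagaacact
The BAT cell contig of Kcng3 ended 14 bases and the dendrite contig 3 bases before the same run of 12 adenines, and both held a run of 13 near their ends. The run began 2 bases after the Kcnd3 contig and 5 bases after the Kcnh1 contig.

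A last sequence is the short stretch that held most Kcnh7 reads of the cardiomyocytes, with its 116 bases in capitals between flanks of 20 bases.
Kcnh7 intron 4, cardiomyocytes, chr2:62688270-62688425, minus strand: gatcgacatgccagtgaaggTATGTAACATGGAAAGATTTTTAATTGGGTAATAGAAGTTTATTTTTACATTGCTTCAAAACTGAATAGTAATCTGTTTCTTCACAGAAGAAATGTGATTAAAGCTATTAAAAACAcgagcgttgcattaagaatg
It began 1 base inside the intron, next to the exon before it.

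Retained potassium channel introns were found in every list. The mouse dendrites listed 29 of the genes, the mouse somas 23, the BAT cells 26 and the cardiomyocytes 12. The rat dendrites listed 14 and the rat somas 12. These were 0.193% (cardiomyocytes) to 0.390% (mouse somas) of the genes of a list. The listed reads, which are the only depth the pooled lists give, ran from 1007530 in the rat dendrites to 17858440 in the BAT cells. Potassium channel introns took 0.575% of them in mouse dendrites (17738 reads), 1.23% in mouse somas (22791), 0.293% in BAT cells (52268) and 0.424% in cardiomyocytes (51775). In rat the shares were 0.207% in dendrites (2081 reads) and 0.522% in somas (10926). These shares and their order rested on few introns. Without the 1% of introns with the most reads, the cardiomyocytes fell to 0.0842%, the mouse somas to 0.640%, and the rat dendrites stood at 0.320%. With only introns that held at least 1 contig of at most 400 nt, each with all its reads, the cardiomyocytes stood at 1.10%, the BAT cells at 0.594% and the rat somas at 1.17%. Reads are given per intron, so those of the short contigs alone are not known: intron 2 of Kcnj3 kept its 25765 cardiomyocyte reads through contigs of 111 and 99 nt, beside others of 460 to 2139 nt.

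**Figure D1:**
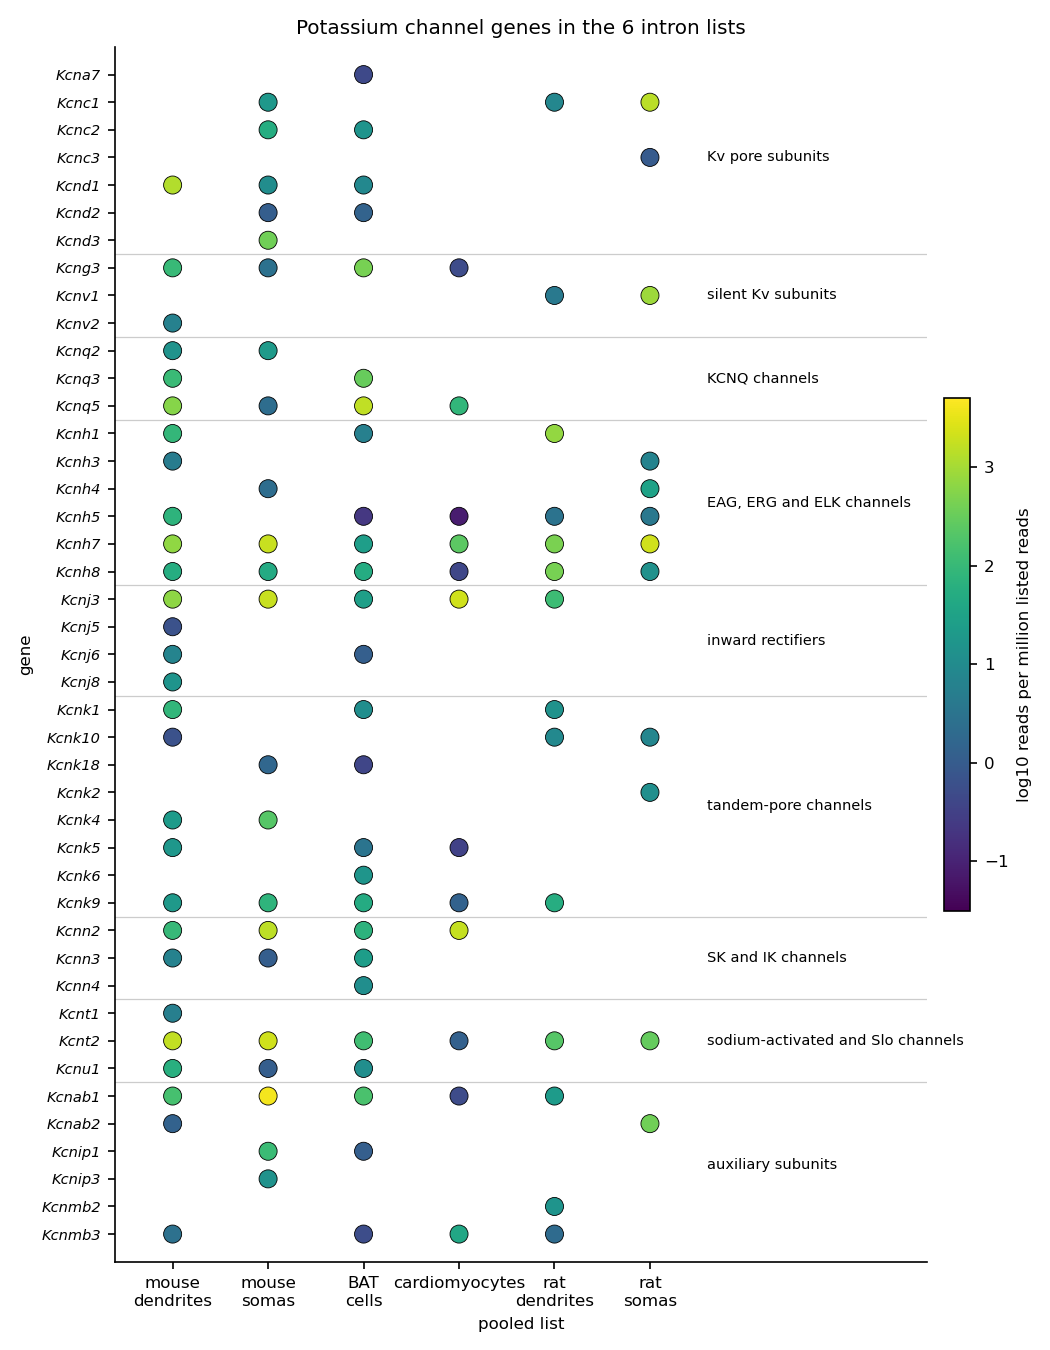
Each point is a potassium channel gene, 43 of which are plotted (vertical, grouped by family) in a pooled list (horizontal), and its colour gives log10 of its reads per 1000000 listed reads. Gaps are genes not listed. Kcnh7, Kcnh8 and Kcnt2 have points in all 6 lists, and the cardiomyocytes hold 12 genes.

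A few genes carried most of these reads. The 3 genes with the most reads held 61.9% of them in mouse dendrites, 64.6% in mouse somas, 78.7% in BAT cells and 97.0% in cardiomyocytes. A high read count was taken as at least 8 on the log2 scale of the reads of 1 intron. Genes that reached it numbered 7 in mouse dendrites (24.1% of the potassium channel genes, against 23.5% of all listed genes) and 7 in mouse somas (30.4% against 18.7%). They numbered 12 in BAT cells (46.2% against 40.2%), 5 in cardiomyocytes (41.7% against 42.9%), 3 in rat dendrites (21.4% against 15.8%) and 5 in rat somas (41.7% against 30.4%). The rat soma count was 2 when only introns with a contig of at most 400 nt were kept.

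Of the 44 genes, 12 were in only 1 list and 3 in all 6. The 3 were Kcnt2, which codes for a sodium-activated channel, Kcnh7, a channel of the ERG type that opens on repolarization, and Kcnh8, its relative of the ELK type. Kcnt2 had 5051 reads in mouse dendrites, 3935 in mouse somas, 2317 in BAT cells, 15 in cardiomyocytes, 215 in rat dendrites and 633 in rat somas. Kcnh7 had 2085, 3335, 451, 3016, 455 and 4447 reads in the same order. Kcnh8 had 162, 84, 902, 5, 443 and 27. Since the lists differ in their total of listed reads, values are also given as reads per 1000000 listed reads (RPM). Kcnt2 stood at 1636 RPM in mouse dendrites and 2121 RPM in mouse somas but at 1.23 RPM in cardiomyocytes, and Kcnh7 was above 400 reads in every list. Kcnh8 had its most reads in the BAT cells but its highest scaled value, 440 RPM, in the rat dendrites. In 5 lists stood Kcnab1, Kcnh5, Kcnj3 and Kcnk9, of which only Kcnh5 was in the rat somas.

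By family, the Kv pore subunits gave 7 genes, which open when the membrane depolarizes. Kcnd1, an A-type channel gene, had 3840 reads in mouse dendrites, 20 in mouse somas and 152 in BAT cells, all in intron 5. Kcnd3 had 684 reads and was listed in the mouse somas alone. Kcnc1, whose channel serves fast firing, had 35 reads in mouse somas, 8 in rat dendrites and 3049 in rat somas. No gene of this family was in the cardiomyocyte list.

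The silent subunits gave 3 genes, which make no current alone. Kcng3 had 314 reads in mouse dendrites, 5 in mouse somas, 7693 in BAT cells and 6 in cardiomyocytes. Kcnv1 was seen in rat alone, with 4 reads in dendrites and 1839 in somas. As RPM, Kcng3 ran from 431 in BAT cells and 102 in mouse dendrites to 2.69 in mouse somas and 0.492 in cardiomyocytes. Each gene drew its reads from a single intron.

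The KCNQ family, whose members carry the slow M-current that restrains repeated firing, gave 4 genes. It held 64.0% of the potassium channel reads of the BAT cells, 12.4% of those of the mouse dendrites and 0.641% of those of the mouse somas, and was not in the rat lists. Kcnq5 had 28022 reads in BAT cells, 1788 in mouse dendrites, 1014 in cardiomyocytes and 4 in mouse somas. These were 1569, 579, 83.1 and 2.16 RPM, the same order of the lists. Kcnq3, its usual partner in neurons, had 5446 reads in BAT cells, from 1 contig of 749 nt in intron 4, and 334 in mouse dendrites.

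The EAG, ERG and ELK channels gave 6 genes and held 77.7% of the potassium channel reads of the rat dendrites and 41.8% of those of the rat somas. In the mouse the share was 15.5% in dendrites and 15.0% in somas. Kcnh1, an EAG channel, had 715 reads in rat dendrites, 713 of them in intron 6, and 275 in mouse dendrites. The family thus led both rat lists.

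The inward rectifiers gave 4 genes. Kcnj3, the G-protein-gated channel subunit that slows the heart on vagal stimulation and quiets neurons, had 25765 reads in cardiomyocytes, 3372 in mouse somas, 2039 in mouse dendrites, 466 in BAT cells and 119 in rat dendrites. Its partner Kcnj5 was listed in the mouse dendrites alone. As RPM, Kcnj3 stood at 2112 in the cardiomyocytes and 1817 in the mouse somas, the mouse dendrites stood at 661 RPM and the BAT cells at 26.1 RPM.

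The small- and intermediate-conductance calcium-activated channels gave 3 genes. Kcnn2, which shapes the pause after a spike, had 21451 reads in cardiomyocytes, 2866 in mouse somas, 1258 in BAT cells and 302 in mouse dendrites. As RPM, Kcnn2 stood at 1758 in cardiomyocytes, 1545 in mouse somas, 70.4 in BAT cells and 97.8 in mouse dendrites. Kcnn3 had 420 reads in BAT cells, 19 in mouse dendrites and 2 in mouse somas. Kcnn2 made up 41.4% and Kcnj3 49.8% of the potassium channel reads of the cardiomyocytes.

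The tandem-pore channels, which pass a background leak, gave the most genes, 8, and few reads, at most 3.80% of the potassium channel reads of a list. Kcnk9, an acid-sensitive leak channel, had 865 reads in BAT cells, 144 in mouse somas, 60 in mouse dendrites, 56 in rat dendrites and 16 in cardiomyocytes. As RPM it was highest in the mouse somas (77.6), followed by rat dendrites (55.6), BAT cells (48.4), mouse dendrites (19.4) and cardiomyocytes (1.31). Kcnk4, a channel gated by membrane stretch, had 393 reads in mouse somas and 68 in mouse dendrites. Of the sodium-activated and Slo channels beside Kcnt2, Kcnu1, known from sperm, had 190 reads in mouse dendrites, 2 in mouse somas and 197 in BAT cells.

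The auxiliary subunits gave 6 genes. Kcnab1, a cytoplasmic subunit that speeds the closing of Kv pores, had 7427 reads in mouse somas, 2874 in BAT cells, 455 in mouse dendrites, 22 in rat dendrites and 6 in cardiomyocytes. At 4003 RPM in the mouse somas it was far above the BAT cells (161 RPM) and mouse dendrites (147 RPM). Its soma reads lay mostly in intron 8 (5979 reads), where 1 contig also overlapped an exon of the antisense gene A730090N16Rik, and because the libraries did not keep the strand the sources of these reads cannot be told apart. Kcnmb3, a subunit of the large-conductance channel, had 476 reads in cardiomyocytes against 9 in BAT cells.

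Raw reads also follow how much of an intron was covered. Per kilobase of contig the order in mouse dendrites changed: Kcnd1, from its 310-nt contig, had 12387 reads per kb, against 512 for Kcnt2 from 28 contigs and 430 for Kcnh7. In mouse somas Kcnab1 led with 1478 reads per kb, and in BAT cells Kcnq3 (7271) stood above Kcng3 (3933) and Kcnq5 (3780). In cardiomyocytes Kcnn2 (8162 reads per kb) stood above Kcnj3 (3877) and Kcnh7 (2320).

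To compare dendrites with somas, RPM values were divided, and a ratio of at least 4 was called. In mouse, 15 potassium channel genes were in both lists. Of these, 5 were higher in dendrites (33.3%, against 33.2% of all shared genes), 4 were lower (26.7% against 24.9%) and 6 lay between. These shares were near those of the background. At a ratio of 2, 7 genes were lower in dendrites, against 35.5% of all shared genes, and 5 were higher, against 42.7%. A further 14 genes were in the dendrite list alone and 8 in the soma list alone. The shared genes were 51.7% of the potassium channel genes of the dendrite list and 65.2% of those of the soma list. For all genes these shares were 55.1% and 80.4%.

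Higher in mouse dendrites were Kcnq5 (1788 against 4 reads, ratio 269, interval 105 to 987), Kcnd1 (3840 against 20, ratio 115, 74.6 to 189) and Kcnu1 (190 against 2, ratio 57.1, 15.6 to 475). Kcng3 (314 against 5) had a ratio of 37.8 (16.0 to 117) and Kcnn3 (19 against 2) of 5.71 (1.38 to 50.6). Among the genes lower in dendrites were Kcnab1 (455 against 7427 reads, 27.2 times), Kcnn2 (302 against 2866, 15.8 times) and Kcnk4 (68 against 393, 9.61 times). The genes low in somas rested there on 2 to 20 reads. Kcnk9, 3.99 times lower, was just short of the called ratio. Kcnt2 was nearly even, with a ratio of 0.772 (0.740 to 0.805).

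On the log2 scale the median ratio of these 15 genes was -0.53, against 0.27 for all 4739 shared genes. Scaled by contig length as well, Kcnq5, Kcnd1 and Kcnu1 alone stayed past the ratio on the dendrite side and Kcnk4, Kcnk9 and Kcnab1 on the soma side, while the median of all shared genes moved to -0.28. Markers of glia moved with this comparison: 6 of 8 were listed in mouse dendrites, at 968 summed RPM, and 3 of 8 in mouse somas, at 6.47, with the microglial gene Cx3cr1 in neither. Their part in the ratios was not tested.

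In rat, 7 genes were in both lists. Kcnh8 was higher in dendrites (443 against 27 reads, ratio 34.1, 23.1 to 52.3), which is 14.3% of the 7 against 35.7% of all 2166 shared genes. Lower were Kcnv1 (4 against 1839 reads, 221 times), Kcnc1 (8 against 3049, 183 times) and Kcnh7 (455 against 4447, 4.70 times), 42.9% against 24.6%. Scaled by contig length, Kcnh7 was no longer past the ratio (log2 ratio -0.35, from -2.23), which left 2 lower genes, Kcnc1 and Kcnv1, against 20.7% of all shared genes. Kcnt2 had a ratio of 0.706 (0.602 to 0.826), Kcnk10 of 1.17 (0.455 to 2.81) and Kcnh5, with 3 against 8 reads, of 0.780 (0.133 to 3.25). The median log2 ratio was -0.50, against 0.73 for all shared genes. Glia markers were 2 of 8 in both rat lists, at 206 summed RPM in dendrites and 40.6 in somas, with Gfap and Aqp4 in neither. Fibroblast markers stood at 319 RPM (3 of 5) in rat dendrites and 0.955 (1 of 5) in rat somas, neuron markers at 1649 (4 of 10) and 8650 (6 of 10). Cardiomyocyte markers stood at 77.4 and 67.3, brown adipocyte markers at 94.3 and 15.8 and endothelial markers at 23.8 and 0. The part of these markers in the ratios was not tested. Kcnh7 had fewer RPM in dendrites in both species (452 against 2123 in rat, 676 against 1797 in mouse). Scaled by contig length this difference was small, with a log2 ratio of -0.21 in mouse (from -1.41), and that of Kcnt2 was -0.86 in mouse and 0.24 in rat (from -0.37 and -0.50).

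**Figure D2:**
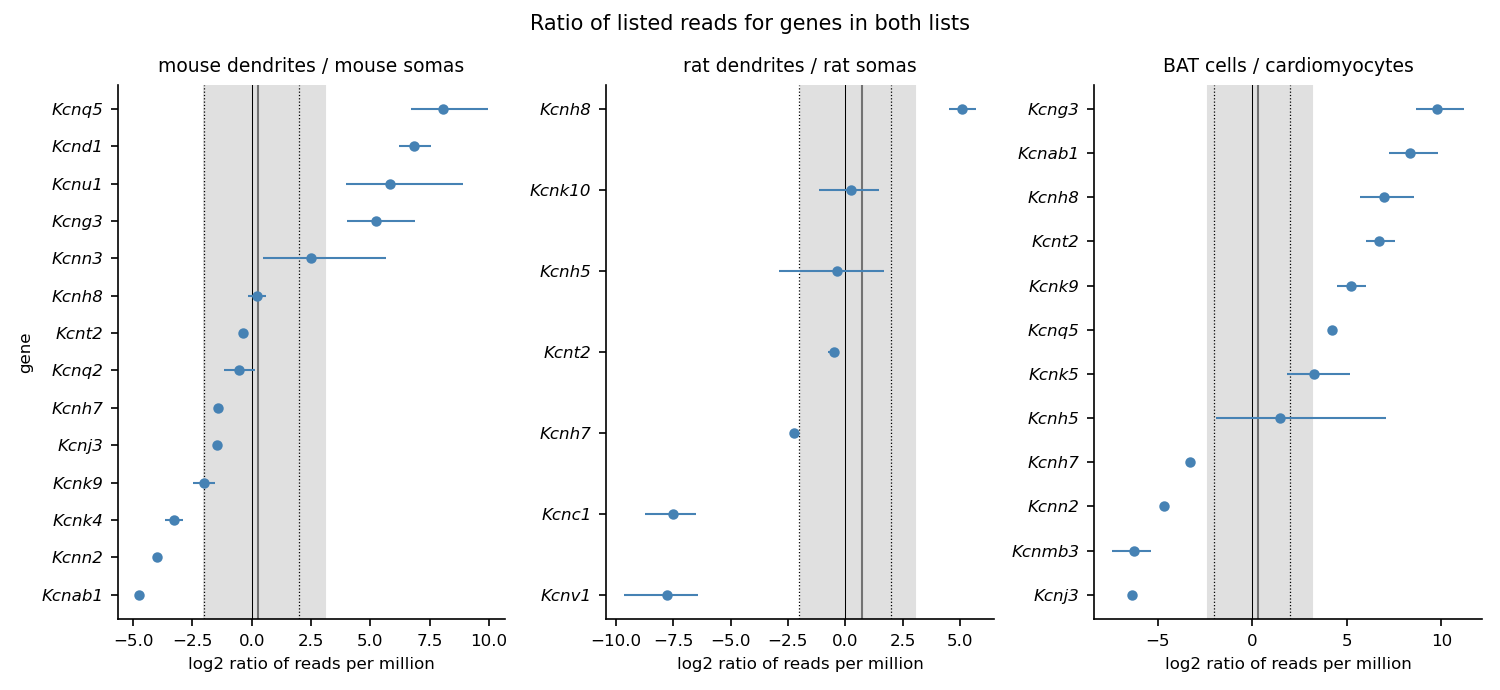
Points give the log2 ratio of RPM for potassium channel genes in both lists of a comparison (14 plotted of 15 in the mouse neurons), with the exact interval for counting error. The grey band is the middle range between quartiles of all shared genes, the grey line their median, and dotted lines mark a ratio of 4. In BAT cells against cardiomyocytes 11 of 12 genes lie outside the dotted lines.

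All 12 potassium channel genes of the cardiomyocyte list were also in the BAT list, as were 87.7% of all genes of the cardiomyocyte list. These 12 were 46.2% of the potassium channel genes of the BAT list, against 53.2% for all genes. Of the 12, 7 were at least 4-fold higher in BAT cells (58.3%, against 34.3% of all 5442 shared genes) and 4 at least 4-fold lower (33.3% against 28.3%). Higher were Kcng3 (ratio 876, interval 402 to 2388), Kcnab1 (327, 150 to 892), Kcnh8 (123, 52.6 to 381), Kcnt2 (106, 63.9 to 189) and Kcnk9 (36.9, 22.6 to 64.9), followed by Kcnq5 (18.9) and Kcnk5 (9.56). Scaled by contig length Kcnk5 was no longer past the ratio (log2 ratio 0.67, from 3.26), which left 6 higher genes, against 19.4% of all shared genes. The 5 with the largest ratios had 5 to 16 reads in the cardiomyocytes. Lower in BAT cells were Kcnj3 (80.9 times), Kcnmb3 (77.4 times), Kcnn2 (25.0 times) and Kcnh7 (9.79 times). Only Kcnh5, with 4 reads against 1 (ratio 2.73, 0.270 to 135), lay between.

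The median log2 ratio of the 12 genes was 3.75, against 0.32 for all shared genes. For the check of the labels, 8 of 9 brown adipocyte markers were in the BAT list, at 8712 summed RPM against 287 in cardiomyocytes, and 8 of 10 cardiomyocyte markers in the cardiomyocyte list, at 48366. Cardiomyocyte markers also stood at 4758 RPM in the BAT list, with Myh7, Tnnt2, Tbx5 and Pln not listed, and 6 of 10 neuron markers at 1039. Their part in the BAT values was not tested. Of the neuron markers 8 of 10 were in the mouse somas, at 8441 RPM, and 7 in the mouse dendrites, at 1288, while Map2 was in no list. In the mouse dendrites 7 of 10 cardiomyocyte markers, at 2760 RPM, 5 of 9 brown adipocyte markers, at 413, 3 of 5 fibroblast markers, at 70.3, and 3 of 4 endothelial markers, at 196, were also listed. The mouse somas listed 3 of 10 cardiomyocyte markers, at 1589 RPM, 2 of 9 brown adipocyte markers, at 2.16, 1 of 5 fibroblast markers, at 55.0, and 3 of 4 endothelial markers, at 729.

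By symbol, mouse and rat dendrites shared 11 potassium channel genes, 37.9% of the mouse set and 78.6% of the rat set. For all genes the shares were 32.1% and 61.6%. The somas shared 5, 21.7% of the mouse and 41.7% of the rat set, against 30.1% and 52.3% for all genes. Kcnh7, Kcnh8 and Kcnt2 were in both groups of shared genes.

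Within a gene, the same intron was usually listed again in another list. Of the 15 genes in both mouse dendrites and somas, 14 had a contig in the same intron (93.3%, against 73.1% of all shared genes). The counts were 18 of 19 for dendrites and BAT cells (94.7% against 76.4%), 11 of 12 for dendrites and cardiomyocytes (91.7% against 68.0%) and 14 of 16 for somas and BAT cells (87.5% against 74.7%). They were 8 of 9 for somas and cardiomyocytes (88.9% against 66.5%), 11 of 12 for BAT cells and cardiomyocytes (91.7% against 79.8%) and 6 of 7 for the rat lists (85.7% against 66.1%). All 7 shares lay above the background. Kcng3 and Kcnk9, which have 1 annotated intron, had to share it. With such genes left out, the shares were 92.3% against 72.9% in mouse dendrites and somas, 94.1% against 76.2% in dendrites and BAT cells and 90.0% against 67.8% in dendrites and cardiomyocytes. They were 85.7% against 74.5% in somas and BAT cells, 85.7% (6 of 7) against 66.4% in somas and cardiomyocytes and 90.0% against 79.6% in BAT cells and cardiomyocytes.

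Contigs at the same place were rarer. Contigs overlapped by at least 1 base for 10 of the 15 genes in mouse dendrites and somas (66.7% against 48.9%) and 12 of 19 in dendrites and BAT cells (63.2% against 44.1%). The other pairs gave 6 of 16 for somas and BAT cells (37.5% against 45.5%), 4 of 9 for somas and cardiomyocytes (44.4% against 43.7%), and 3 of 12 for dendrites and cardiomyocytes (25.0% against 35.9%). BAT cells and cardiomyocytes gave 3 of 12 (25.0% against 56.4%) and the rat lists 3 of 7 (42.9% against 45.8%). Overlap was thus above the background for mouse dendrites with mouse somas and with BAT cells, and below it or near it in the other pairs, the rat lists included.

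Which intron led also changed. Of the 26 genes in at least 2 mouse lists, 13 had the same leading intron in all of them and 13 did not. Leading introns were not computed for all listed genes, so no background stands beside the counts in this paragraph. Of the 9 genes in all 4 mouse lists, 3 kept 1 leading intron, but Kcng3 and Kcnk9 have only 1 annotated intron, so for them it could not change. Among the 24 genes with more than 1 annotated intron, or with no match in the annotation, that were in at least 2 mouse lists, 11 kept their leading intron. Kcnj3 was the third gene of the 4 lists, with intron 2 holding 98.6% of its reads in mouse dendrites, 99.9% in mouse somas and all of them in BAT cells and cardiomyocytes.

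Kcnt2 led with intron 22 in mouse dendrites (3232 reads from 1 contig) and in BAT cells (862), but with intron 14 in mouse somas (2844). At the printed intron 22 site the somas had 14 reads over the whole intron. Kcnq5 led with intron 11 in mouse dendrites (1144 reads), intron 2 in mouse somas (4), intron 10 in BAT cells (24209) and intron 7 in cardiomyocytes (923). Each of its 4 lists thus had a leading intron of its own.

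Kcnab1 led with intron 8 in mouse somas (5979 reads) and intron 2 in BAT cells (2749). Kcnn2 led with intron 3 in cardiomyocytes (18586 reads), BAT cells (1006) and mouse dendrites (236), and with intron 6 in mouse somas (2502). Kcnh7 led with intron 9 in mouse dendrites (1085 reads) and intron 7 in mouse somas (1927), where a contig also overlapped an exon of another Kcnh7 transcript, and with intron 4 in BAT cells (186) and cardiomyocytes (2514). Its rat reads lay mostly in intron 2, with 376 in dendrites and 3570 in somas.

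**Figure D3:**
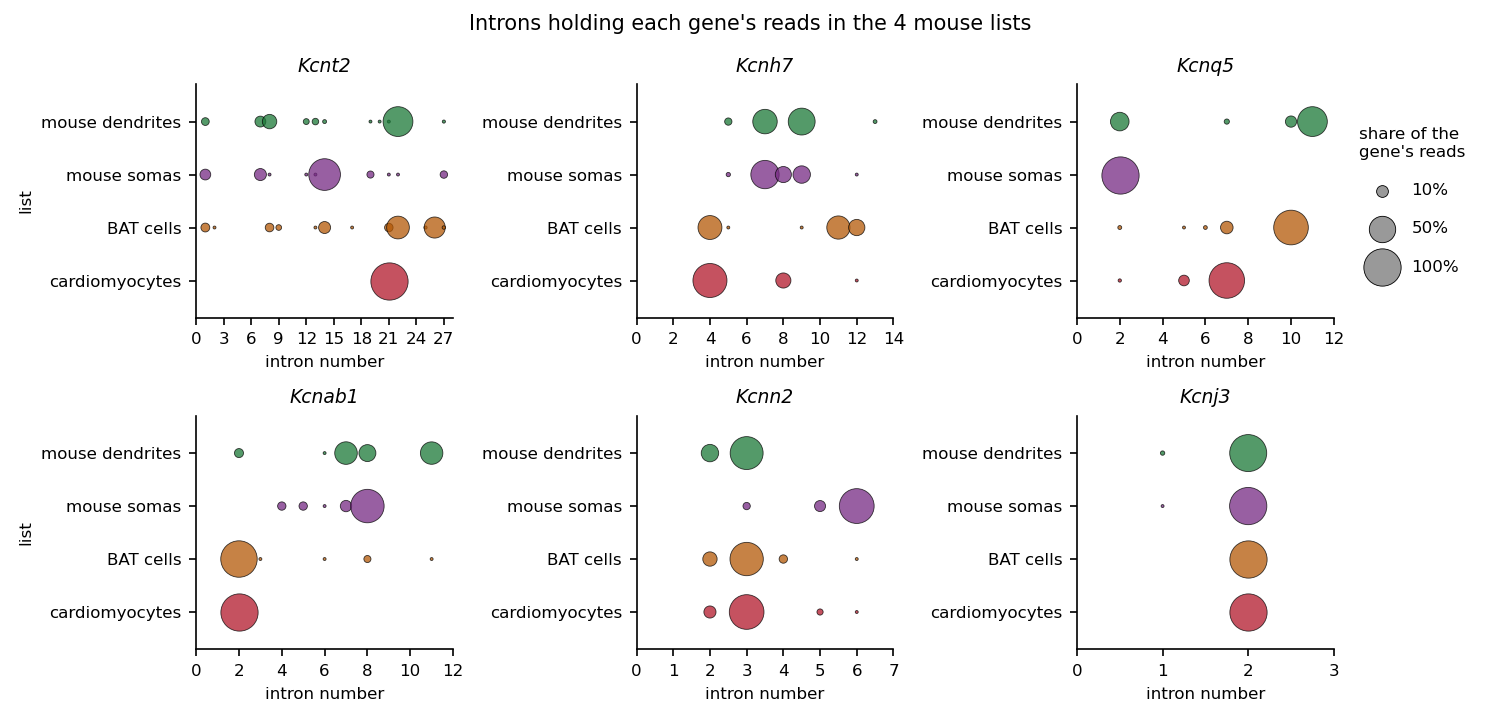
For 6 genes in all 4 mouse lists, each point is an intron with a contig, placed by its number in the transcript (horizontal) and its list (vertical), and its area gives its share of the gene's reads in that list. Kcnj3 shows intron 2 for every list, while the largest point moves between introns for Kcnt2, Kcnh7, Kcnq5, Kcnab1 and Kcnn2.

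Some introns held many separate stretches. Intron 2 of Kcnj3, 147768 nt long, held 14 contigs in mouse dendrites, 8 in mouse somas, 15 in BAT cells and 8 in cardiomyocytes. Intron 1 of Kcnt2, 104856 nt long, held 10, 6 and 3 in the first 3 of these lists and was not listed in the cardiomyocytes. Introns with a single contig were 54.7% of the potassium channel introns in mouse dendrites against 80.0% of all listed introns, 62.5% against 85.9% in mouse somas, 51.7% against 77.8% in BAT cells and 68.4% against 85.3% in cardiomyocytes. In rat they were 71.4% against 89.7% in dendrites and 66.7% against 90.2% in somas. In every list the potassium channel introns were more often in several pieces.

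**Figure D4:**
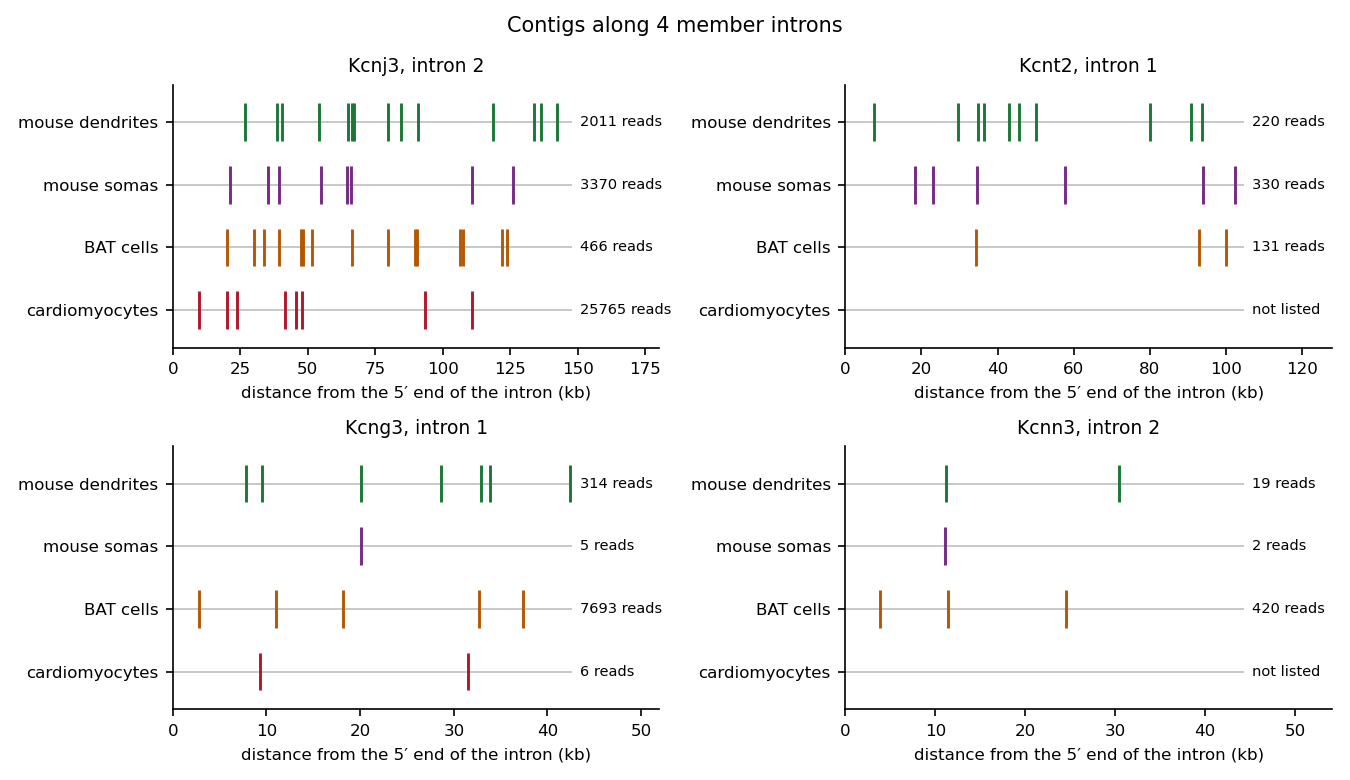
Vertical ticks mark the middle of each contig along 4 introns, by distance from the 5′ end of the intron in kb, in the 4 mouse lists. The label gives the reads of the intron in that list. In intron 2 of Kcnj3 the contigs spread over most of the intron in all 4 lists, while the reads ran from 466 to 25765.

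The stretches themselves were short. The median contig of a potassium channel intron was 266 nt in mouse dendrites, 313 in mouse somas (277 for all contigs), 247 in BAT cells (273), 264 in cardiomyocytes (282), 311 in rat dendrites (278) and 332 in rat somas (303). With only introns of at least 5 on the log2 scale of reads, the potassium channel medians were 283, 458, 313, 460, 371 and 555 nt in the same order. The median GC content of the potassium channel contigs ran from 37.8% in cardiomyocytes to 39.5% in BAT cells, against 40.8% to 41.5% for all mouse contigs.

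The mouse introns were set against the annotation of the same build, in which 39 of 40 potassium channel transcripts could be matched, Kcnh8 being left out. Of their annotated introns 22.8% had a contig in mouse dendrites (61 of 267, interval 18.2% to 28.2%), against 15.7% for all listed transcripts. The shares were 22.4% in mouse somas (45 of 201, 17.2% to 28.6%) against 11.9%, 30.4% in BAT cells (58 of 191, 24.3% to 37.2%) against 21.7%, and 18.1% in cardiomyocytes (17 of 94, 11.6% to 27.1%) against 14.6%. In the first 3 lists the background lay below the interval.

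In mouse dendrites the median length of the potassium channel introns with a contig was 13541 nt and of those without 1800 nt. Over all listed transcripts the medians were 3916 and 1409 nt. Shorter introns were also retained, 8 of the 61 with a contig having 1 to 3 kb and 3 having 300 to 1000 nt. Among introns of 30 to 100 kb, 16 of 25 had a contig in mouse dendrites (64.0%, 44.5% to 79.8%), against 30.9% of all introns of that length. The values were 57.1% against 26.3% in mouse somas, 56.5% against 30.5% in BAT cells and 42.9% against 25.0% in cardiomyocytes. Among introns of 1 to 3 kb, 8 of 67 had a contig in mouse dendrites (11.9%, 6.18% to 21.8%), near the 14.6% of all. In the class of 30 to 100 kb the lower bound lay above the share of all introns in mouse dendrites, mouse somas and BAT cells, but not in cardiomyocytes.

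**Figure D5:**
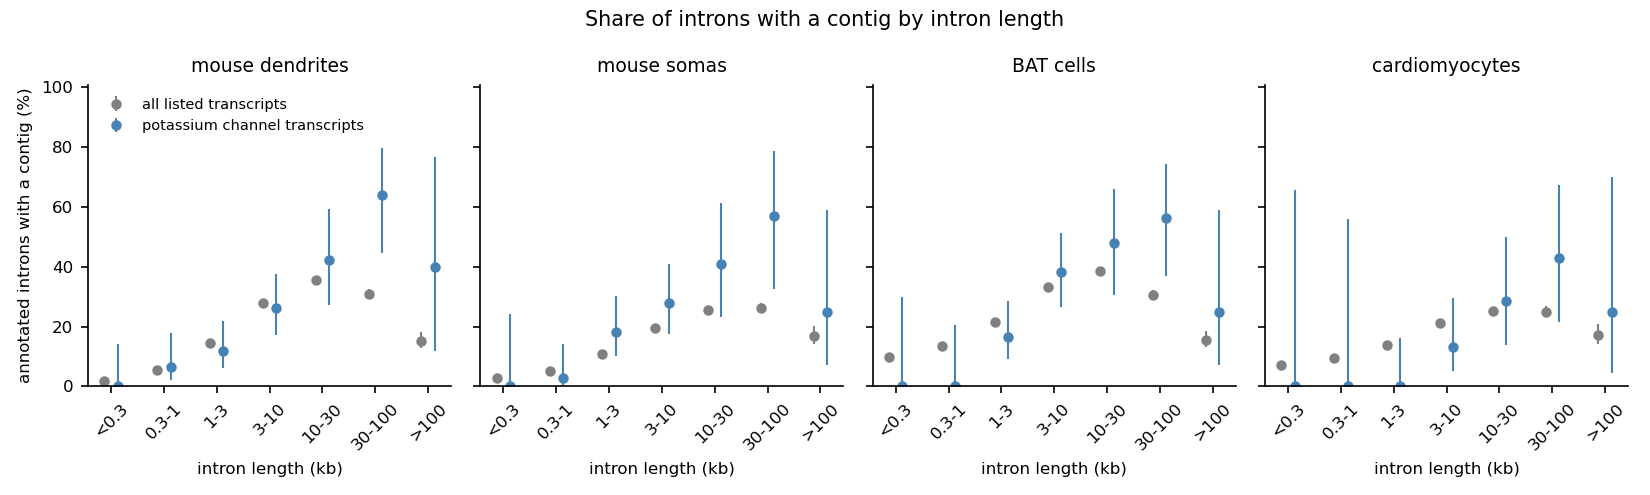
Share of annotated introns with a contig (%) by intron length class (kb) in the 4 mouse lists, for the potassium channel transcripts (blue) and all listed transcripts (grey), with Wilson intervals for counting error. In mouse dendrites the blue point at 30 to 100 kb, 64.0%, lies above the grey one, 30.9%, and in the classes under 10 kb the intervals of the blue points reach the grey ones.

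Many potassium channel genes were in no mouse list. Of 93 annotated in this build, 40 were listed (43.0%), against 55.3% of all protein-coding genes. The listed genes had a median of 59687 nt of intron and the others 8810 nt, and 5 genes had no intron. With 100 kb of intron or more, 17 of 22 were listed, against 85.2% of all genes in that class. With 10 to 100 kb it was 18 of 38 (47.4%) against 77.4%, and with 1 to 10 kb 5 of 25 (20.0%) against 42.1%. Long-intron genes that did not appear in the mouse lists used here included the delayed rectifier gene Kcnb2 and the Kcnip4 gene, whose protein binds A-type channels, which were picked after their values were seen.

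Mouse contigs seldom touched an annotated exon: 3 in mouse dendrites (2.26%, against 5.04% of all contigs), 5 in mouse somas (5.88% against 9.60%), 3 in BAT cells (2.26% against 7.52%) and 0 in cardiomyocytes, where the share of all contigs was 11.4%. They also seldom began or ended at an exon boundary. Contigs that started within 5 nt of the 5′ end of the intron numbered 3 in mouse dendrites (2.34% against 4.20%), 4 in mouse somas (5.00% against 7.38%), 5 in BAT cells (4.00%, 1.72% to 9.02%, against 17.0%) and 1 in cardiomyocytes (3.33% against 18.4%). Contigs that stopped within 5 nt of the 3′ end numbered 2 (1.56% against 5.23%), 2 (2.50% against 8.71%), 3 (2.40%, 0.820% to 6.82%, against 19.3%) and 1 (3.33% against 22.4%) in the same order. The Kcnd1 contig of the mouse dendrites and the 619-nt contig of Kcnmb3 in cardiomyocytes were among these. In the BAT cells both intervals lay below the background.

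Since the amplification starts from a poly(T) primer, runs of 10 or more adenines on the gene's strand were counted in the 300 nt after each mouse contig. They followed 10 of 133 potassium channel contigs in mouse dendrites (7.52%, against 8.11% of all contigs), 12 of 85 in mouse somas (14.1% against 18.6%), 5 of 133 in BAT cells (3.76% against 7.36%) and 1 of 32 in cardiomyocytes (3.12% against 9.53%). Counting runs within 30 nt on either side of the 3′ end gave 14 (10.5% against 10.9%), 17 (20.0% against 21.3%), 8 (6.02% against 7.96%) and 5 (15.6% against 13.9%). By the 300-nt count the share of all contigs lay within the interval of the potassium channel contigs in BAT cells (1.62% to 8.50%) and cardiomyocytes (0.554% to 15.7%), and with runs of 8 or more adenines the cardiomyocyte share was 15.6% against 14.6%. By both counts it was highest in the mouse somas, as for all contigs. The Kcng3, Kcnd3, Kcnh1 and Kcnh7 sequences above are examples. Since the strand of the reads was not kept, runs of 10 or more thymines were also counted, in the 300 nt before each contig. They preceded 8.27% of potassium channel contigs in mouse dendrites (12.6% of all contigs) and 3.53% in mouse somas (11.4%). The shares were 11.3% in BAT cells (8.95%) and 12.5% in cardiomyocytes (7.61%). In these 2 lists the share of all contigs lay within the interval (6.95% to 17.8% and 4.97% to 28.1%).

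Other genes of the pathway were taken from a list of 4 HCN channels and 7 partner proteins. Of these 11, 6 were listed in mouse dendrites (13209 reads), 5 in mouse somas (162), 7 in BAT cells (10830), 5 in cardiomyocytes (232) and 4 in each rat list (801 and 475). Dpp6, a partner of A-type channels, had 11024 reads in mouse dendrites and 40 in mouse somas. Abcc9, the sulfonylurea receptor of ATP-sensitive channels, had 8921 in BAT cells and 2 in cardiomyocytes. Kcnma1 had 1597 reads in mouse dendrites, 169 in mouse somas, 1114 in BAT cells, 15 in cardiomyocytes, 5 in rat dendrites and 859 in rat somas.

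Potassium channel introns held a larger share of the listed reads than the calcium channel pore genes in each list, 0.575% against 0.179% in mouse dendrites, 1.23% against 0.509% in mouse somas, 0.293% against 0.0145% in BAT cells and 0.424% against 0.246% in cardiomyocytes. They spanned more genes, 29 against 8 in mouse dendrites, 23 against 5 in mouse somas, 26 against 9 in BAT cells and 12 against 2 in cardiomyocytes. These shares are therefore not values per gene. Per listed gene the calcium channel pores had more introns in every list, such as 3.00 against 2.21 in mouse dendrites and 6.00 against 1.58 in cardiomyocytes. The sodium channel pore genes held 0.0253%, 0.0770%, 0.136% and 0.0675% in the same lists.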

How the data were processed

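The authors amplified RNA of dissected dendrites, somas and single cells with 3 rounds of aRNA amplification, sequenced it, aligned the reads with RUM (version not given in the sources used here) to mm9 or rn4, and joined intron reads within 500 nt into contigs. They dropped introns with predicted genes, poly(A) sites or structured RNAs. The deposited lists pool the libraries of a condition and give raw read counts of an intron, repeated on each of its contigs, without strand of the reads. A contig limit of 400 nt that the study set for whole cells is not applied in these lists, where 32.7% to 37.9% of the contigs of the somas, BAT cells and cardiomyocytes are longer.

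Here each intron was counted once per transcript. Ratios used reads per 1000000 listed reads (RPM), and a ratio of 4 was called. Wilson 95% intervals for shares and exact conditional intervals for ratios were computed with scipy 1.17.1, pandas 2.3.3 and numpy 2.4.6 in Python 3.11.15. The scripts were tested on simulated data. Sequences, intron lengths and exons were read from NCBIM37, in which 12920 of 13156 listed mouse transcripts (98.2%) were matched by coordinates. The rat genome was not analysed here. No p-value was computed, since each condition is 1 list. Alternatives were a read minimum of 5 or 10 in place of 8 on the log2 scale, a ratio of 2, scaling by contig length or without the top 1% of introns, only introns with a contig of at most 400 nt in whole-cell lists, Kcnma1 added, contig overlap in place of a shared intron, and shorter adenine runs. Genes were named when they held 1 of the 3 introns of highest read count within a list, together with those in at least 5 lists, the leading gene of each family and the 5 largest ratios in each direction. Others described were chosen after their values were seen. The members, the families and the lists of markers and pathway genes were chosen with earlier results of these data known. Values of 1 listed gene are not reported here and were left out of the plots, though it stays in all counts.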

Additional observations from a re-analysis of the deposited data

How the results depend on the processing

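No call of direction reversed for the 34 log2 ratios of single genes, over 68 alternative values. Of 140 alternative values of the other results, 98 stayed within 1.5 times a count or within the counting interval of a share. For median contig lengths the range allowed was that between the quartiles of the contigs, which is wide. With introns of at least 5 on the log2 scale of reads, 13 genes were listed in mouse somas, 5 in cardiomyocytes, 6 in rat dendrites and 6 in rat somas. The share of listed reads without the top 1% of introns was 0.476% in mouse dendrites, 0.640% in mouse somas, 0.264% in BAT cells, 0.0842% in cardiomyocytes, 0.320% in rat dendrites and 0.754% in rat somas. With Kcnma1 it was 0.626% in mouse dendrites, 0.299% in BAT cells and 0.563% in rat somas. With only introns that held a contig of at most 400 nt in the whole-cell lists, each keeping its reads from longer contigs, it was 1.15% in mouse somas, 0.594% in BAT cells, 1.10% in cardiomyocytes and 1.17% in rat somas. Without introns whose contigs touched an exon, an alternative chosen after seeing the data, it was 0.593% in mouse dendrites, 0.911% in mouse somas, 0.337% in BAT cells and 0.538% in cardiomyocytes.

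Genes with an intron past 5 on the log2 scale of reads numbered 20 in mouse dendrites, 13 in mouse somas, 19 in BAT cells and 6 in rat dendrites. Past 10 on that scale they numbered 4 in BAT cells, 3 in cardiomyocytes, 0 in rat dendrites and 3 in rat somas, and with introns holding such a short contig 2 in rat somas past 8. At a ratio of 2, 7 of 15 genes were lower in mouse dendrites (35.5% of all shared genes), and per contig length 3 of 15 were higher (23.5% of all). The share of called genes that were higher then moved from 55.6% to 41.7% at a ratio of 2. For ratios the top 1% of introns was left out of the list totals only, and each gene kept all its reads. The median log2 ratio of all shared genes was then 0.18 in mouse, 0.83 in rat and 0.60 for BAT cells over cardiomyocytes. Per contig length it was -0.28, 0.52 and -0.81. Contig overlap in place of a shared intron gave 3 genes for mouse dendrites and cardiomyocytes, 6 for mouse somas and BAT cells, 4 for mouse somas and cardiomyocytes, 3 for BAT cells and cardiomyocytes and 3 for the rat lists. Leaving out genes of 1 annotated intron, also chosen after seeing the data, kept all 6 mouse counts of shared introns within 1.5 times. Runs of 6 adenines followed 26.3% of contigs in mouse dendrites (25.9% of all contigs), 41.2% in mouse somas (40.6%), 24.8% in BAT cells (25.3%) and 37.5% in cardiomyocytes (29.8%), and runs of 8 followed 9.02% in BAT cells (11.6%). The cause of these differences was not tested.

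No paired analysis was possible because each condition is a single pooled list. By the study's methods, introns with predicted genes, poly(A) sites or structured RNAs were left out, while long contigs remain in the lists. The study gives the reads of each library in a supplement, and that depth was not used here. Genes with under 10 reads in a list, such as Kcnq5, Kcng3 and Kcnu1 in mouse somas, carry wide counting intervals.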
